A study of Mus musculus with 6 samples.

Results

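The genes described here make, carry, sense and break down retinoic acid in mouse cells. They are the retinoic acid receptors Rara, Rarb and Rarg, the retinoid X receptors Rxra and Rxrb, the binding proteins Crabp1 and Crabp2, the retinal dehydrogenase Aldh1a1 and the retinoic acid hydroxylase Cyp26b1. The members were chosen by name, and every non-control array probe whose transcript accession carries one of the 9 symbols was read. Of the 9 genes, 8 had a probe and 7 had a probe bright enough to be compared, out of 23462 named genes with a probe and 13560 with a compared probe. The 8 genes had 15 probes, of which 12 were compared. No probe matched Crabp2 here, so Crabp2 was not analysed.

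Gene expression was measured in TM4 cells after 24 h with 10 µM 4-nitrophenol (PNP), a nitrophenol that certain insecticides break down to and that occurs in engine exhaust, or after 24 h without it. There were 3 PNP samples and 3 untreated samples, each hybridised to 1 single-colour array. TM4 is a line of mouse testis somatic cells used as a model of Sertoli cells, the nurse cells of the seminiferous tubule, and both groups are that 1 line, so they hold none of the contacts with germ cells that Sertoli cells have in the testis. The labels do not say whether the samples came from separate cultures, so a p-value here reflects the spread of these samples, which could be technical only.

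Retinoic acid is made inside cells from retinol. Alcohol and short-chain dehydrogenases turn retinol into retinal, retinal dehydrogenases of the ALDH1A family turn retinal into retinoic acid, and CYP26 enzymes oxidise retinoic acid to forms that are cleared. Retinoic acid binds the RARs, which sit on DNA as pairs with an RXR and switch between corepressors and coactivators. In the testis, Sertoli cells pass retinoic acid to germ cells, where it is needed for entry into meiosis and for spermatogonial differentiation, and CYP26B1 keeps it low in the fetal testis.

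One promoter sequence is printed here as an example from a known receptor target. Rarb is itself a known target of the RARs, through an element in its promoter made of a pair of half-sites in the same direction with 5 bases between them. The sequence is that of RefSeq for GRCm38.p6, chr14:16575427-16575726, minus strand, which covers the 250 bases before the annotated start of Rarb and the first 50 bases after it. The capitals mark the half-sites and the bases between them.
Rarb promoter: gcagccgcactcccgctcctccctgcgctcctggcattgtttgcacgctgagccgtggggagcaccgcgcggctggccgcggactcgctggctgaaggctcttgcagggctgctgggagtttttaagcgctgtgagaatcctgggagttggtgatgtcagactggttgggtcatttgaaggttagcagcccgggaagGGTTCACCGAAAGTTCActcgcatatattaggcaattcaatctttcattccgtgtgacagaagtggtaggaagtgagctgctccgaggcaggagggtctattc
The match lies at bases 198 to 214 of the window, and its last base lies 37 bases before the start. The search took AGGTCA or AGTTCA or GGGTCA or GGTTCA as a half-site, on both strands and with any pairing of the 4. With 5 bases between half-sites, 1 of the 15 member promoters in the RefSeq table held a match, that of Rarb, and 32 of all 32851 promoters did (0.0974%). With 1 base between them, 0 member promoters and 73 of all promoters matched (0.222%), and with 2 bases, 0 member promoters and 88 of all promoters (0.268%). These letters are a description of the window and say nothing of binding in TM4 cells.

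Array quality bears on every value below. Between 48% and 57.9% of the 56605 non-control probes were well above background on an array, and no spot was saturated. Each slide carried 2 of the arrays, and where an array lay on the slide, called position 1 or 2, split the samples unevenly. Position 1 held PNP replicate 2 with untreated replicates 1 and 3, and position 2 held PNP replicates 1 and 3 with untreated replicate 2. The positions were separated by the first principal component (35.8% of the variance over the compared probes), from 16.7 to 46.4 at position 2 and from -54.3 to -26.6 at position 1. Differences within each position are therefore given for the compared member probes. The second component (28.3%) separated the groups, from 24.9 to 43.8 on PNP arrays and from -43.2 to -8.93 on untreated arrays. The slide moved with the groups too, and its part in that component was not tested. Of the Sertoli cell markers, 9 of 12 genes were compared, while the hormone gene Amh, the tight junction gene Cldn11 and the hormone receptor gene Fshr were well above background on 0 of 6 arrays. The mean level over those 9 markers, on the log2 scale described next, ran from -0.38 to -0.28 on PNP arrays and from -0.20 to 0.04 on untreated arrays, and its part in the retinoid values was not tested. Of the genes of other testis cells, 2 of 8 for germ cells, 4 of 4 for peritubular myoid cells, 2 of 5 for macrophages, 0 of 4 for endothelial cells and 0 of 6 for Leydig cells were compared; 5 of those 6 had a probe. The 2 macrophage genes were Csf1r and Cd68, and the defining genes Adgre1 and Ptprc were above background on no array.

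All levels are log2 of the scanner's processed signal minus the 75th percentile of the same array, so 0 is the level of a probe brighter than 3 in 4 of the others. Each probe binds with its own strength, so levels are compared between arrays and never between probes. Of the 15 member probes, 12 were well above background on all 6 arrays, 1 on no array, and 2 on 1 array each. Over all probes, 45.6% were well above background on all 6 arrays and 37.1% on none. The transcripts of 7 members, all 3 RARs, both RXRs, Aldh1a1 and Cyp26b1, were thus measured in both groups, while Crabp1 was not reliably above background in either.

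**Figure D1:**
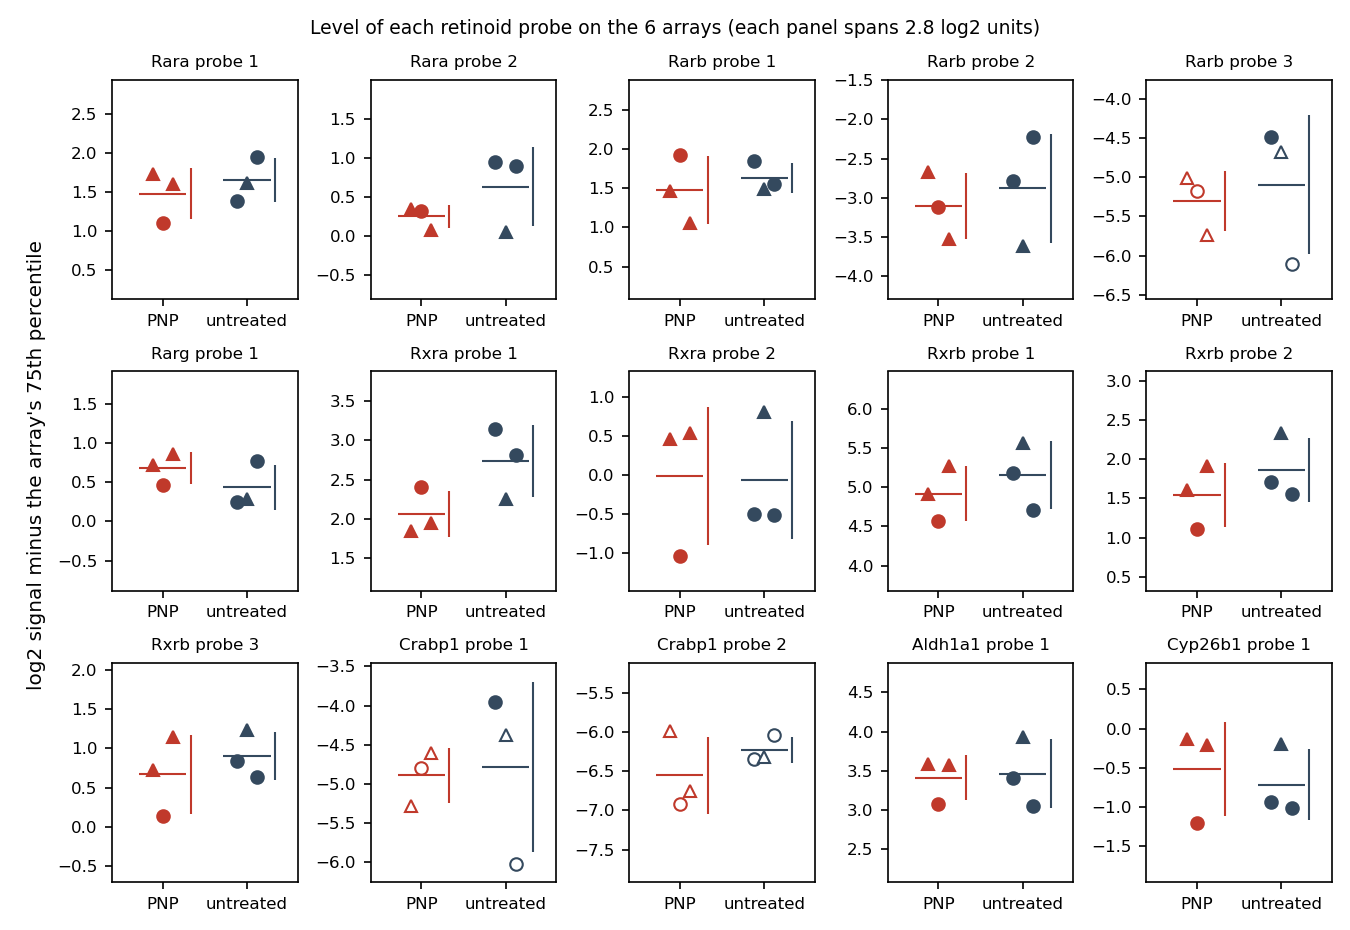
Level of each of the 15 member probes (vertical axis, log2 signal minus the array's 75th percentile), PNP arrays in red on the left and untreated arrays in blue on the right of each panel. Circles are arrays at position 1 and triangles at position 2, open symbols are not well above background, horizontal lines are means and vertical bars SDs (n = 3). In each of the 12 panels whose symbols are all filled the groups overlap, and open symbols appear for Rarb probe 3 and both Crabp1 probes.

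No member passed the test between PNP and untreated cells. Here and below, adjusted p-values are from 1 comparison over all probes unless another comparison is named. Of the 12 compared probes, 0 had an adjusted p under 0.05 (limma, Benjamini-Hochberg over all 28374 compared probes, percent called over all probes 0), and 0 had groups that did not overlap, against 15.0% of all compared probes. The log2 fold change, PNP minus untreated, was positive for 3 probes and negative for 9, with a median of -0.20, against -0.04 over all compared probes, of which 12741 were positive and 15633 negative. Over the 20068 compared probes with a symbol the median was -0.08, with 7912 positive and 12156 negative. Of those 20068, 2719 had groups that did not overlap and 1322 had an unadjusted p under 0.05 (limma). The values of the member probes ran from -0.68 to 0.25, and their adjusted p-values from 0.52 to 0.983. At an unadjusted p under 0.05 there was 1 member probe, Rxra probe 1, which was lower with PNP, so 1 in 12 stood against 9.31% of all compared probes. In bulk RNA, less RNA per cell and fewer cells with the RNA cannot be told apart. Each fold is also relative to the array's 75th percentile. Centring the arrays on the median instead moved the median of all compared probes to -0.16 and gave 2 positive and 10 negative member probes. The split also moved to 6 and 6 without PNP replicate 2 or with slide as a fixed block, to 5 positive and 7 negative with array weights, and to 1 positive and 11 negative with array position as a block.

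**Figure D2:**
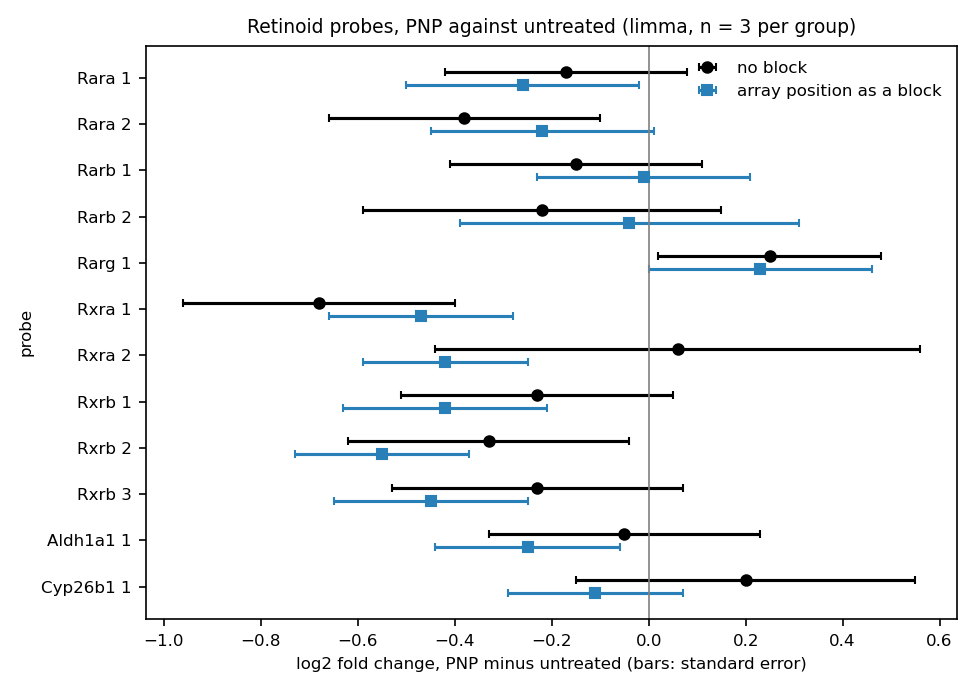
Log2 fold change (horizontal axis, PNP minus untreated) of the 12 compared member probes, with standard errors as bars. Black circles are the comparison without a block and blue squares the one with array position as a block; with the block, the 5 RXR probes lie between -0.55 and -0.42.

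The RARs are the receptors that bind all-trans retinoic acid. Rara, the RAR that Sertoli cells are best known for, had 2 probes, both made for the transcript NM_001177302. Rara probe 1 had levels of 1.73, 1.11 and 1.60 on the PNP arrays, against 1.39, 1.62 and 1.95 on the untreated arrays. PNP replicate 2 was the lowest and untreated replicate 3 the highest, and the groups overlapped. The log2 fold change was -0.17 ± 0.25 (SE, limma, adjusted p = 0.847, 95% confidence interval -0.74 to 0.39). Rara probe 2 had levels of 0.35, 0.32 and 0.08 on the PNP arrays, against 0.95, 0.05 and 0.89 on the untreated arrays. The PNP arrays lay between the untreated ones, of which replicates 1 and 3 were the 2 highest of all 6 arrays and replicate 2 the lowest. This gave a log2 fold change of -0.38 ± 0.28 (SE, limma, adjusted p = 0.688, interval -1.01 to 0.25). Over the 6 arrays the levels of the 2 probes correlated weakly (Pearson r = 0.16), which describes arrays that share RNA and signal and is no test.

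Rarb, the receptor whose promoter is printed above, had 3 probes for 3 RefSeq transcripts. Rarb probe 1 (NM_011243) had levels of 1.46, 1.92 and 1.05 in PNP cells, against 1.85, 1.49 and 1.55 in untreated cells. The highest and the lowest array were both PNP arrays, replicates 2 and 3. Its log2 fold change was -0.15 ± 0.26 (SE, limma, adjusted p = 0.876, interval -0.75 to 0.44), so a known retinoic acid target differed by less than the spread between these samples. Rarb probe 2 (NM_001289760) was dim, with -2.67, -3.12 and -3.52 in PNP cells, against -2.79, -3.61 and -2.23 in untreated cells. Here the extremes were both untreated arrays, replicates 3 and 2, and the log2 fold change was -0.22 ± 0.37 (SE, limma, adjusted p = 0.871, interval -1.07 to 0.62). Rarb probe 3 (NM_001289761) was well above background on 0 of 3 PNP arrays and 1 of 3 untreated arrays, replicate 1, and was not compared. Its signals, near background in both groups, were 13.6, 12.7 and 7.21 in PNP cells and 13.8, 10.7 and 6.8 in untreated cells.

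Rarg, the RAR best known from skin and cartilage, had 1 probe (NM_011244), and it had the largest positive log2 fold change of the 12. Its levels were 0.72, 0.46 and 0.86 in PNP cells, against 0.25, 0.28 and 0.77 in untreated cells. Untreated replicates 1 and 2 were the lowest arrays, while untreated replicate 3 lay above PNP replicates 1 and 2. It differed by 0.25 ± 0.23 on the log2 scale (SE, limma, adjusted p = 0.748, interval -0.27 to 0.77). At position 1 the difference was -0.05 and at position 2 it was 0.51. The 5 RAR probes thus gave 4 negative values and 1 positive one, none past the test.

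The RXRs are the shared partners of the RARs and of the thyroid hormone, vitamin D, PPAR and LXR receptors. Rxra probe 1 (NM_011305) had levels of 1.84, 2.40 and 1.95 on the PNP arrays, against 3.15, 2.25 and 2.81 on the untreated arrays. PNP replicates 1 and 3 were the lowest arrays and untreated replicates 1 and 3 the highest, with PNP replicate 2 above untreated replicate 2, so that the groups overlapped. The mean was 2.06 ± 0.30 in PNP cells and 2.74 ± 0.46 in untreated cells (SD, n = 3 each), a log2 fold change of -0.68 ± 0.28 (SE, limma, unadjusted p = 0.0413, adjusted p = 0.52, interval -1.32 to -0.03). Leaving out 1 array at a time gave log2 fold changes from -0.92 to -0.47, and the direction held in each of the 6. The unadjusted p was 0.0242 without PNP replicate 2 and 0.00804 without untreated replicate 2, and it was between 0.0916 and 0.165 without any of the other 4 arrays.

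Rxra probe 2, made for the same transcript as probe 1, gave another picture. It had levels of 0.46, -1.03 and 0.54 on the PNP arrays, against -0.49, 0.81 and -0.51 on the untreated arrays. The 3 high arrays were those at position 2 and the 3 low ones those at position 1, whichever group they belonged to. The log2 fold change was 0.06 ± 0.50 (SE, limma, adjusted p = 0.983, interval -1.08 to 1.19), and it ran from -0.22 without PNP replicate 3 to 0.57 without PNP replicate 2. Over the 6 arrays the 2 Rxra probes ran in opposite directions (Pearson r = -0.65, a description over arrays that share RNA and position).

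Rxrb, the RXR known from null mice to be needed for Sertoli cell function, had 3 probes. Rxrb probe 1 (NM_001205214) had levels of 4.92, 4.57 and 5.27 in PNP cells, against 5.18, 5.57 and 4.71 in untreated cells, and PNP replicate 2 was the lowest array and untreated replicate 2 the highest. Its log2 fold change was -0.23 ± 0.28 (SE, limma, adjusted p = 0.819, interval -0.88 to 0.42). Rxrb probe 2 (NM_011306) had levels of 1.61, 1.11 and 1.91 in PNP cells, against 1.71, 2.33 and 1.56 in untreated cells, with the same arrays lowest and highest. Its log2 fold change was -0.33 ± 0.29 (SE, limma, adjusted p = 0.74, interval -0.99 to 0.33). Rxrb probe 3, for the same transcript as probe 1, had levels of 0.72, 0.14 and 1.15 in PNP cells, against 0.84, 1.24 and 0.63 in untreated cells, again with those arrays at the ends. Its log2 fold change was -0.23 ± 0.30 (SE, limma, adjusted p = 0.827, interval -0.91 to 0.45). The 3 Rxrb probes followed each other closely over the 6 arrays, with Pearson r between 0.94 and 0.96, which is a description of probes read on the same RNA and arrays.

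Array position moved with these values. The comparison with array position as a block also gives the difference of position 2 minus position 1, which was added as a readout after the data were seen. Rxra probe 2 was 1.42 ± 0.17 higher on the log2 scale at position 2 (SE, limma, adjusted p = 0.0149) and Cyp26b1 was 0.91 ± 0.18 higher (SE, limma, adjusted p = 0.0418). These were 2 of the 12 member probes, against 3.29% of all compared probes. The position difference of Rxra probe 2 was of like size in each group, 1.53 among PNP arrays and 1.31 among untreated arrays. Rxra probe 1 had a position term of the other sign, -0.62 (limma, adjusted p = 0.119), and the Rxrb probes had 0.57, 0.67 and 0.65 (limma, adjusted p between 0.0925 and 0.178).

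Within positions, all 5 RXR probes were lower in PNP cells. The PNP minus untreated difference at positions 1 and 2 was -0.58 and -0.36 for Rxra probe 1, -0.53 and -0.31 for Rxra probe 2, -0.37 and -0.47 for Rxrb probe 1, -0.53 and -0.57 for Rxrb probe 2, and -0.59 and -0.30 for Rxrb probe 3. Of the 7 other compared member probes, 1 was lower at both positions, Aldh1a1, so the count was 6 of 12, against 41.0% of all compared probes. At position 1 alone, Rara probes 1 and 2 and Rarb probe 2 were about as low as the RXR probes, at -0.56, -0.60 and -0.61. At position 2 they had 0.05, 0.16 and 0.52, while Rarb probe 1 had 0.22 at position 1 and -0.24 at position 2. Each such difference sets 1 array against 2, and probes of 1 gene share their RNA, so the 5 RXR probes stand for 2 genes. With position as a block in limma, the log2 fold changes were -0.47 ± 0.19 and -0.42 ± 0.17 for the Rxra probes and -0.42 ± 0.21, -0.55 ± 0.18 and -0.45 ± 0.20 for the Rxrb probes (SE). The unadjusted p (limma) was under 0.05 for Rxra probe 1 (0.041), Rxra probe 2 (0.0444) and Rxrb probe 2 (0.0182). These were 3 of the 12 member probes, against 13.7% of all compared probes. The adjusted p of these 3 was 0.354, 0.358 and 0.293, so none passed the test. The slide also moved with the groups, since 1 slide held only untreated arrays, 1 held only PNP arrays and 1 held an array of each; with slide as a fixed block, the Rxra probes had log2 fold changes of -0.97 and 0.97 and the Rxrb probes 0.22, 0.05 and 0.09. The slide block rests on the slide with both groups, where PNP replicate 1 lay at position 2 and untreated replicate 3 at position 1. Position was not in that comparison, so its values also hold the position difference on that slide. Every difference within a position sets arrays of different slides against each other. The part of the slide in the differences within positions was not tested.

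**Figure D3:**
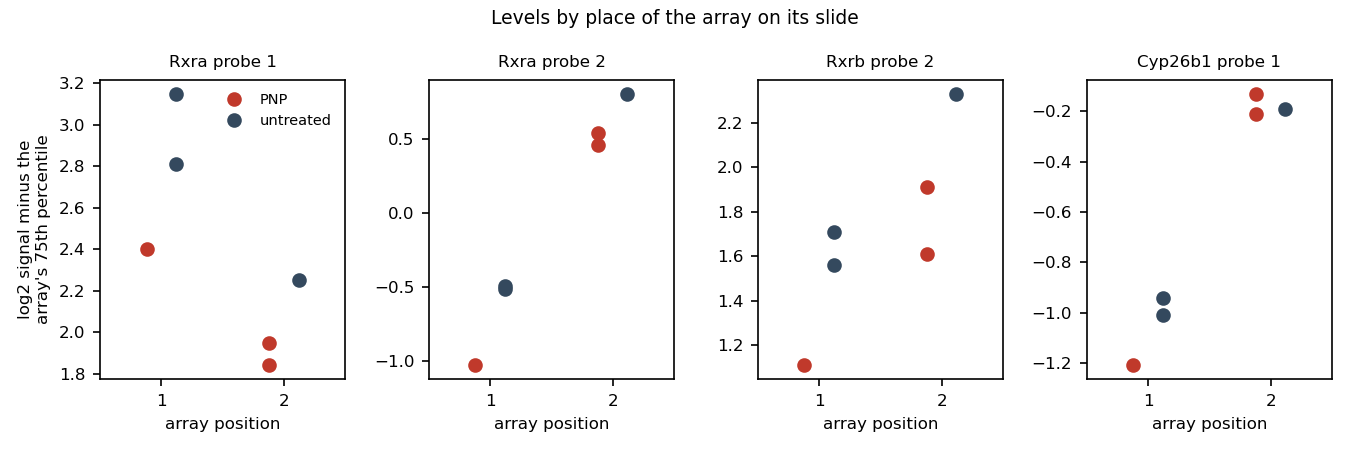
Levels of 4 member probes (vertical axes, log2 signal minus the array's 75th percentile) by the position of the array on its slide (horizontal axis), with PNP arrays in red and untreated arrays in blue. At each position the red points of Rxra probe 1, Rxra probe 2 and Rxrb probe 2 lie below the blue ones, while Cyp26b1 differs mainly between positions, by 1.05 among PNP arrays and 0.78 among untreated arrays.

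The cellular retinoic acid binding proteins hold retinoic acid in the cytoplasm, and CRABP1 is linked to its delivery to CYP26 enzymes. Crabp1 probe 1 (NM_013496) was well above background on 0 of 3 PNP arrays and 1 of 3 untreated arrays, replicate 1. Its signals were 11.3, 16.5 and 15.9 in PNP cells and 19.9, 13.3 and 7.21 in untreated cells. Crabp1 probe 2 (NM_001284507) was printed as 10 spots, and 0 of them were well above background on each of the 6 arrays. The geometric mean signals of probe 2, over its spots without outliers, were 6.9, 3.76 and 3.57 in PNP cells and 3.85, 3.42 and 7.14 in untreated cells. No fold is given for either probe: probe 2 was not well above background in either group, and the bound for probe 1 came to less than 1.

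Of the enzymes, Aldh1a1 makes retinoic acid from retinal and is the ALDH1A known from mouse Sertoli cells. Its probe (NM_013467) had levels of 3.59, 3.08 and 3.57 in PNP cells, against 3.41, 3.93 and 3.05 in untreated cells. The lowest and the highest array were both untreated, replicates 3 and 2. Aldh1a1 thus had a log2 fold change of -0.05 ± 0.28 (SE, limma, adjusted p = 0.967), and its 95% interval of -0.68 to 0.58 on the log2 scale spans folds of 0.624 to 1.5. Without PNP replicate 2 the log2 fold change was 0.12, and without untreated replicate 2 it was 0.19. Within positions 1 and 2 it was -0.14 and -0.35. The other enzymes that make retinoic acid from retinal, Aldh1a2, Aldh1a3 and Aldh8a1, were well above background on 0 of 6 arrays.

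Cyp26b1 oxidises retinoic acid and is the CYP26 known for holding it down in the fetal testis. Its probe (NM_175475) had levels of -0.13, -1.21 and -0.21 in PNP cells, against -0.94, -0.19 and -1.01 in untreated cells. As for Rxra probe 2, the 3 high arrays were those at position 2 and the 3 low ones those at position 1. The log2 fold change was 0.20 ± 0.35 (SE, limma, adjusted p = 0.881, interval -0.60 to 1.00), and with position as a block it was -0.11 ± 0.18 (SE, limma, adjusted p = 0.775). Within positions 1 and 2 it was -0.24 and 0.03. Leaving out 1 array gave 0.55 without PNP replicate 2, 0.46 without untreated replicate 2 and 0.00 to 0.09 without any other array. Slide as a fixed block gave 0.88, which rests on 1 slide whose PNP and untreated arrays lay at opposite positions. Cyp26a1 and Cyp26c1, the other enzymes of the family, were well above background on 0 of 6 arrays. Among the enzymes that make retinoic acid from retinal and those that break it down, Aldh1a1 and Cyp26b1 were thus the ones measured in TM4 cells here.

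The retinoid genes around these members were read from 5 further lists, with the brightest probe of each gene, and 0 of their genes passed the test over all compared probes. Among Rxrg and the receptors that pair with RXRs, 7 of 12 genes were compared, of which 1 had a positive log2 fold change and 6 a negative one, with a median of -0.26. Rxrg, the remaining RXR, was well above background on 0 of 6 arrays. Ppard, a fatty acid sensor, had -0.35 ± 0.20 (SE, limma, adjusted p = 0.623), with levels of 0.98, 1.04 and 1.26 in PNP cells and 1.65, 1.42 and 1.27 in untreated cells. Nr1h3, the oxysterol receptor LXR alpha, had 2 dim probes, at 0.58 ± 0.24 and 0.10 ± 0.45 (SE, limma, adjusted p = 0.519 and 0.958). Both were well above background on 3 PNP arrays and 2 untreated arrays, so they were compared only because of the PNP group.

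Among genes of retinol uptake, storage and transport, 6 of 13 were compared, 2 positive and 4 negative, with a median of -0.11. Fabp5, which carries retinoic acid to another nuclear receptor, had 0.32 ± 0.23 (SE, limma, adjusted p = 0.692). Among the enzymes that interconvert retinol and retinal, 12 of 16 genes were compared, 5 positive and 7 negative, with a median of -0.09. Rdh1, a retinol dehydrogenase, had levels of -2.74, -3.96 and -3.56 in PNP cells, against -2.77, -2.46 and -2.43 in untreated cells, a log2 fold change of -0.87 ± 0.31 (SE, limma, unadjusted p = 0.023, adjusted p = 0.454). Adh7, an alcohol dehydrogenase that oxidises retinol, had levels of -0.89, -0.09 and 0.37 in PNP cells, against -1.26, -1.19 and -0.75 in untreated cells, a log2 fold change of 0.86 ± 0.33 (SE, limma, unadjusted p = 0.0299, adjusted p = 0.49). In both genes 1 PNP array, replicate 1, lay within the range of the untreated ones.

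Of the receptors' coregulators, 9 of 9 genes were compared, 4 positive and 5 negative, with a median of -0.01. The corepressor Ncor1 had 5 compared probes, from -0.06 to 0.34, and the Mediator subunit Med1 had 4, from -0.56 to -0.04, with adjusted p-values of 0.636 or more (limma). Of the genes known to respond to retinoic acid, 14 of 18 were compared, 7 positive and 7 negative, with a median of 0.06, against -0.04 over all compared probes. Bhlhe40, a transcription factor first described as induced by retinoic acid, had levels of 1.51, 1.73 and 1.62 in PNP cells, against 2.25, 1.97 and 2.06 in untreated cells. Each PNP array lay below each untreated array, as in either direction for 15.0% of all compared probes, and the log2 fold change was -0.47 ± 0.19 (SE, limma, unadjusted p = 0.0394, adjusted p = 0.515). Stra8, the germ cell gene that retinoic acid switches on before meiosis, was well above background on 0 of 6 arrays.

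**Figure D4:**
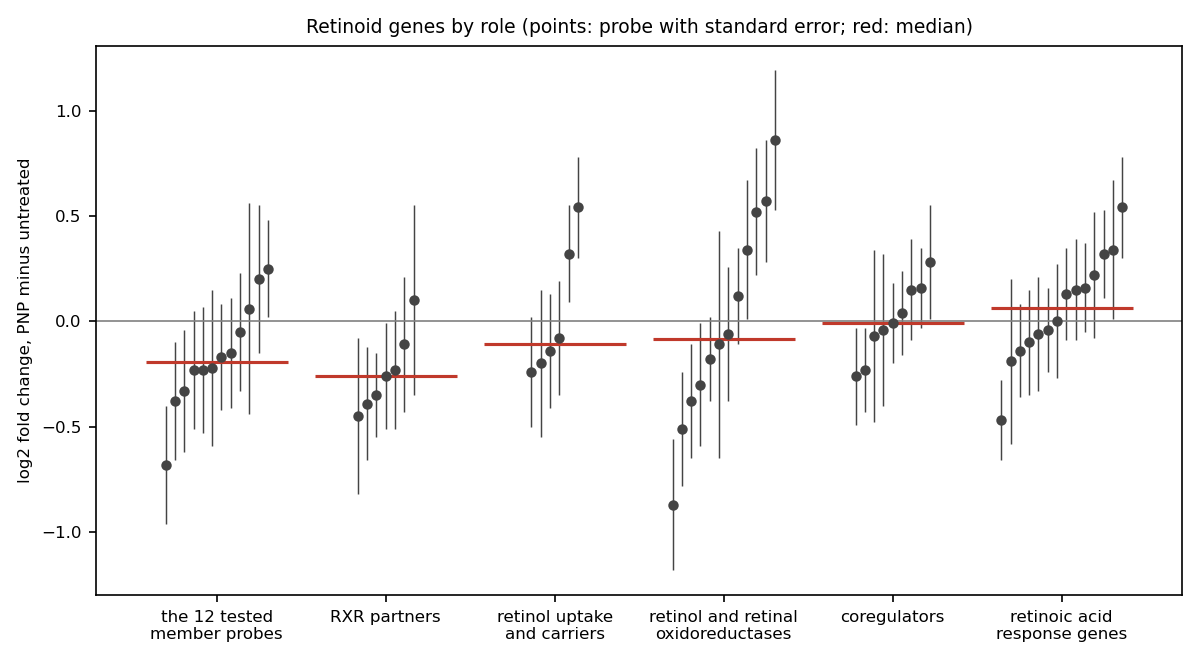
Log2 fold change (vertical axis, PNP minus untreated) of the 12 compared member probes and of the brightest probe of each compared gene in 5 further retinoid lists (horizontal axis), sorted within each list, with standard errors as bars and the median in red. The medians lie between -0.26 and 0.06, and no gene passed the test.

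Of the 12 compared member probes, Rxra probe 2 varied the most over the 6 arrays, with an SD of 0.74. Among 825 probes of named genes that varied at least as much, those most like it were probes of Mef2b, a MADS box transcription factor, with Pearson r = 0.9999 over the 6 arrays, of Nbas, a protein of vesicle transport, with 0.9955, and of Plekhm3 with 0.9942. Their log2 fold changes between PNP and untreated cells were 0.09, 0.02 and 0.14, beside 0.06 for Rxra probe 2, and these 6 arrays share the position split described above.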

How the data were processed

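Total RNA of 6 TM4 samples was amplified, labelled with Cy3 and read on Agilent arrays of 62976 spots, 3671 of them controls. The deposited intensity values are the processed signal of each spot, background-subtracted and left unscaled between arrays, which Agilent Feature Extraction made (11.5.1.1 according to the file headers, 10.7 in the submitters' processing notes). The authors also deposited log2 values for these arrays. Each column of them has a median of 4.74, as quantile normalization gives, and a correlation of 0.998 or more with the scanner signals. Higher values thus mean brighter probes in both, which says nothing of the differences between groups.

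Spots of a probe, without outlier spots, were averaged on the log2 scale and set against the 75th percentile of their array. Probes well above background on all 3 arrays of either group were compared (28374 of 56605); a probe with several spots counted where most of them were. Accessions, without versions, were looked up in RefSeq's GRCm38.p6 table, for names only because the headers name mm9; 33767 probes gained a symbol and 22838 did not. Group and replicate come from the labels. The comparison used limma 3.58.1 (R 4.3.3), with lmFit and eBayes. Its two-sided p-values were adjusted by Benjamini-Hochberg over the compared probes (threshold 0.05). It was also run on simulated data with independent noise and no position or slide difference, so that run does not bear on such differences. Precision is limited by the number of arrays.

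The text names every member with every probe, the 2 genes with the smallest unadjusted p in each retinoid list, each gene of the retinal dehydrogenase and CYP26 lists, and the 3 genes most like the member probe with the largest SD. A further item that this rule names is not reported here. Rxrg, Stra8 and the marker genes were named after their values were seen. The members and lists were chosen with earlier results of these data known. Alternatives changed the background correction (normexp, offset 50), scaling, filter, variance model, unit, source of values, threshold and arrays included, or added a block for the slide, the position or the replicate number.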

Additional observations from a re-analysis of the deposited data

How the results depend on the processing

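No member probe passed the adjusted threshold of 0.05 in any of the 26 alternatives (lowest adjusted p = 0.0633, limma, Rxra probe 1 with array weights, adjusted p up to 1 elsewhere). Over all compared probes 0 passed, and 2641 had an unadjusted p under 0.05. In turn 674 passed with array weights (7573 at an unadjusted p under 0.05), 665 within array position 1, 111 within position 2 (1609 unadjusted), 22 with the position block and a robust trend (4452 unadjusted) and 30 with the position block and normexp, the last 2 alternatives chosen after seeing the data. The fixed slide block gave 1376 at an unadjusted p under 0.05. The weights put 6.33 on untreated replicate 1 and 0.519 to 0.897 on the others, and the within-position fits rest on 3 arrays each, with a lone sample assumed to vary like the others. Leaving out each array gave 0 called probes and 1318 (without untreated replicate 1) to 3298 at an unadjusted p under 0.05. The count of member probes at an unadjusted p under 0.05 (limma) was 1 in the report. It was 0 with quantile normalization, the percentile over detected probes, no filter, the fixed slide block, the authors' values and the median of a gene's probes. With array weights it was 2, with the position block alone or with normexp 3, and with the position block and a robust trend 4. Without 1 array it was 0 to 2. Same-numbered arrays deviated from their group means with correlations of -0.42, -0.56 and -0.43. Each such pair lay at opposite positions, so these values cannot show whether the numbers pair the samples. With the replicate block 0 probes were called, and 1609 compared probes and 0 member probes had an unadjusted p under 0.05 (limma). That block holds 1 array of each group per number, so it leaves every fold change as it was.

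Of 287 log2 fold changes of members under alternatives, 36 had the other sign, none of them past the threshold, and the cause was not tested. No filter, the filter on all 6 arrays, the robust trend, the replicate block and the brightest probe left the fold changes as they were. These alternatives could not change a sign, and the position block with a robust trend repeats the values of the position block alone. The 287 are therefore not separate checks. Aldh1a1 was 0.04 with normexp, quantile normalization and the authors' values, 0.01 with the percentile over detected probes, 0.00 with array weights, 0.54 with the fixed slide block, and -0.26 to 0.19 without 1 array. Rxra probe 2 was -0.06 with median centring, -0.42 with the position block alone or with a robust trend, -0.36 with the block and normexp, -0.53 and -0.31 within positions 1 and 2, and -0.22 to 0.57 without 1 array, against 0.97 with the fixed slide block. Cyp26b1 was -0.11 with the position block alone, with a robust trend or with normexp, and -0.24 within position 1, against 0.88 with the fixed slide block and 0.00 to 0.55 without 1 array. Rara probe 1 was 0.04 with array weights, 0.05 within position 2 and -0.30 to 0.01 without 1 array, and Rara probe 2 was 0.16 within position 2. Rarb probe 1 was 0.22 within position 1 and -0.38 to 0.06 without 1 array, and Rarb probe 2 was 0.52 within position 2 and -0.59 to 0.10 without 1 array. Rarg was -0.04 with the fixed slide block and -0.05 within position 1. The fixed slide block rests on the 1 slide with both groups, whose PNP and untreated arrays lay at opposite positions. With it the Rxrb probes were 0.22, 0.05 and 0.09. Rxrb probe 3 was -0.47 to 0.03 without 1 array. Rxra probe 1 stayed negative in each of its own alternatives, from -1.01 with array weights to -0.36 within position 2, and the median of both Rxra probes was -0.31. Counting a probe as detected on at least 1 array gave 14 member probes in place of 12. Probes near background (Rarb probe 3 and both Crabp1 probes) carry no comparison here, whatever the number of arrays.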
